A study of Danio rerio with 25 samples.

Results

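Tubes of cells sorted as cardiomyocytes of the sox10 lineage from the adult zebrafish heart fell into 2 kinds by the heart myosin gene they expressed. Of the 18 libraries sorted in the RFP gate, 8 held more reads of vmhc (ENSDARG00000079782), the ventricular myosin heavy chain, than of myh6 (ENSDARG00000090637), the atrial myosin heavy chain, and 10 held more of myh6. The 18 are part of 25 libraries in all. The former are called vmhc-dominant here and the latter myh6-dominant, and all folds are vmhc-dominant over myh6-dominant unless another direction is named. The tubes were chosen by the raw counts of these 2 genes in the libraries themselves, not by a label, so both genes are left out of every result.

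All fish carried sox10:CreERT2, a tamoxifen-inducible recombinase under the sox10 promoter, together with vmhcl:loxP-tagBFP-loxP-mCherry-NTR, a reporter of the cardiac myosin promoter vmhcl that changes from the blue tagBFP to the red mCherry-NTR after recombination. The RFP gate therefore takes cells in which the recombinase was active, and the BFP gate takes cells that kept the unswitched reporter. Each tube held 20 sorted cells, and its RNA was amplified with Smart-seq2, which does not count single molecules. The vmhc-dominant tubes comprised 4 of 12 RFP libraries from hearts after cryoinjury (CI_RFP replicates 1, 2, 8 and 12) and 4 of 6 from uninjured hearts (UN_RFP 1, 2, 4 and 5), and the myh6-dominant tubes comprised 8 after cryoinjury (CI_RFP 3, 4, 5, 6, 7, 9, 10 and 11) and 2 from uninjured hearts (UN_RFP 3 and 6). The time after injury, the animals, the sorts and the handling of tamoxifen are not given in the labels, so p-values measure only the spread between these tubes, and the injury label was kept in each fit.

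The atrium and ventricle of the heart differ in their contractile proteins, ion channels and metabolism. Ventricular identity rests in part on transcription factors of the Iroquois family (Irx), and atrial identity on the COUP nuclear receptors (Nr2f) and on Tbx5 and retinoic acid signalling. Each chamber muscle also has its own isoforms of myosin, troponin and other sarcomere proteins, so the myosin pair is the usual first marker of a chamber.

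The values that made the split left little doubt about the side of any tube. In the vmhc-dominant libraries raw vmhc counts ran from 10253 to 269883 and raw myh6 counts from 0 to 33, and in the myh6-dominant libraries myh6 counts ran from 1873 to 31840 and vmhc counts from 0 to 765. The tube nearest to the boundary was UN_RFP 6, with 765 vmhc and 7691 myh6 counts, and the nearest on the other side was UN_RFP 5, with 40482 and 18. Total counts ran from 5644279 to 11981012 and did not separate the classes (exact permutation within injury label, two-sided, adjusted p = 0.265 over 27 tests of library measures). Detected genes per library ran from 1226 to 11491 in the vmhc-dominant and from 3874 to 15380 in the myh6-dominant tubes (exact permutation adjusted p = 0.0817).

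One fact touches nearly every result that follows. In 9 of the 10 myh6-dominant tubes, genes of fibroblasts, epicardium and extracellular matrix took 0.967% to 10.57% of all counts, against 0.00718% to 0.2123% in the vmhc-dominant tubes. The tenth, CI_RFP 5, held 0.00783%, with 38 of the 43 genes of that list at 0, and 3874 detected genes. Myosin class and matrix RNA thus moved together in all RFP tubes but this one. Values of CI_RFP 5 are given beside many of the differences, and values of the BFP libraries for a few genes in a later part. In pools of sorted cells, fewer cells of a type and less RNA per cell cannot be told apart.

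**Figure D1:**
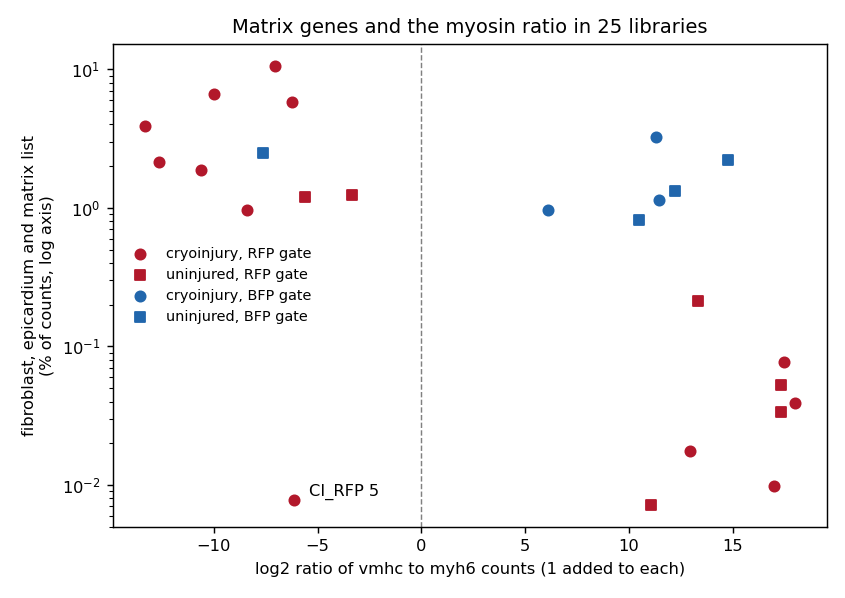
Share of counts in the fibroblast, epicardium and matrix list (log axis) against the log2 ratio of vmhc to myh6 counts, 1 point per library, coloured by gate and shaped by injury. Of the myh6-dominant RFP libraries, on the left, 9 lie at 0.967% or above and CI_RFP 5 lies at 0.00783%, while the 6 vmhc-dominant BFP libraries lie between 0.815% and 3.245%.

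Across 12426 tested genes, 174 were higher in the vmhc-dominant tubes, 1.4% of those tested, and 1028 were lower, 8.27%, or 9.67% in either direction (edgeR quasi-likelihood test, Benjamini-Hochberg adjusted p under 0.05). The 12 higher genes of smallest p included tnni4a, CKMT2, IRX1, IRX2 and hspb6, and the 12 lower ones included DCN, tfa, BHMT, THBS1 and TNNC1. Both sets were limited to genes with a usable name that were detected in 75% or more of the tubes of their higher class. Every vmhc-dominant tube lay above every myh6-dominant tube for 17 genes, 0.137% of those tested, and the reverse held for 25, 0.201%. Overlap was judged on scaled counts, and the scaling factors were 0.543 to 0.854 in vmhc-dominant tubes and 0.838 to 1.86 in myh6-dominant tubes. The median log2 fold change over all tested genes was -0.85, and it moved to -1.73 with RLE size factors and to -1.83 with no scaling factors. Higher genes made up 14.5% of those called, against 3.72% with no scaling factors, 24.9% with no filter on low counts, 35.4% in cryoinjury tubes alone, 29.5% without the 4 libraries of fewest detected genes and 49% with the number of detected genes as a covariate. Within cryoinjury tubes 137 genes were higher (1.19% of 11516 tested) and 250 lower (2.17%), and within the 6 uninjured tubes 1 was higher (0.0115% of 8721) and 7 lower (0.0803%). Of the genes named here, 34 of the 80 tested in cryoinjury tubes alone and 58 of the 66 tested in uninjured tubes alone lost their call, and none of the called ones turned sign there.

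**Figure D2:**
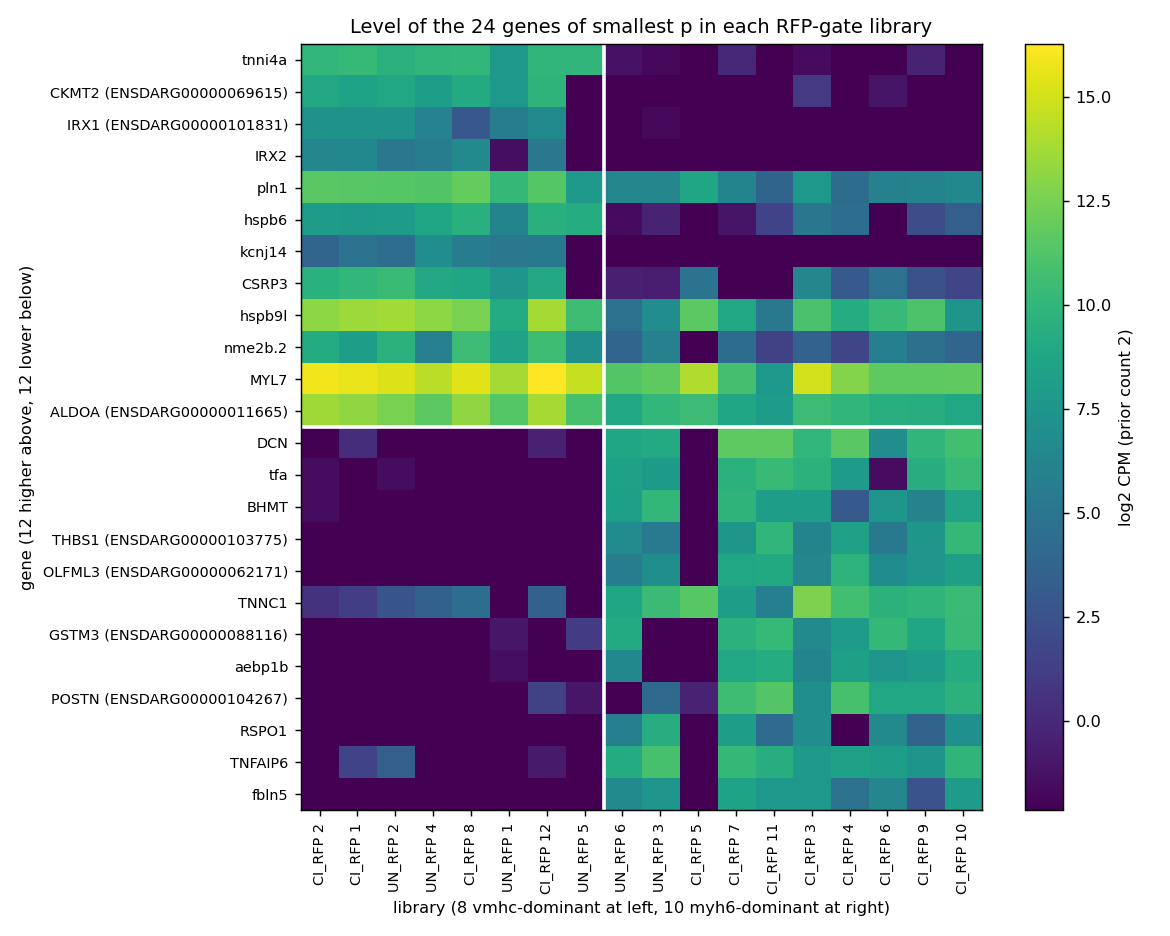
Level of the 12 higher and 12 lower genes of smallest p in each of the 18 RFP libraries, as log2 CPM with a prior count of 2, libraries ordered by their ratio of vmhc to myh6. Only named genes detected in 75% or more of the tubes of their higher class were eligible. CI_RFP 5 lacks the matrix genes of the other 9 myh6-dominant libraries, holds 2918 CPM of TNNC1, and reads 0 for tnni4a, and UN_RFP 5 lacks CKMT2, IRX1, IRX2, kcnj14 and CSRP3 among the vmhc-dominant ones.

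IRX1 and IRX2, a pair of Iroquois genes, were higher in the vmhc-dominant tubes. IRX1 (ENSDARG00000101831), a transcription factor of the ventricle, ran from 0 to 161.4 CPM (reads per library, made comparable by trimmed-mean normalisation) in the vmhc-dominant tubes with a median of 81.06, and from 0 to 0.0663 CPM in the myh6-dominant tubes with a median of 0. It was detected in 7 of 8 vmhc-dominant tubes, UN_RFP 5 being the one at 0, and a single read was counted in all 10 myh6-dominant tubes (edgeR adjusted p = 2.66e-10). IRX2, another Iroquois factor, which was not in the list of ventricular identity genes, ran from 0 to 95.93 CPM with a median of 43.39 in the vmhc-dominant tubes and had no count in any myh6-dominant tube. It was at least 1739-fold higher (edgeR adjusted p = 2.01e-08), measured against a floor of 3 counts over the combined size of the group at 0. Both were also 0 in CI_RFP 5, and both were called within cryoinjury tubes (edgeR adjusted p = 0.000496 for IRX1 and 0.00056 for IRX2).

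Of the 4 tested genes of the ventricular identity list, IRX1 was the 1 called (25% higher, against 1.4% of all genes tested). HEY2, a Notch-family repressor needed for ventricular identity in mouse, did not pass (log2 fold change 2.74 ± 2.39 (SE), edgeR adjusted p = 0.608), and NKX2-5, an early cardiac homeobox factor, had a log2 fold change of 2.30 (edgeR adjusted p = 0.16). IRX5, a further Iroquois factor, had a value of the other sign, -2.87 (edgeR adjusted p = 0.46). The ventricular list as a whole, a small sum of 0.0000142% to 0.0231% of counts in the vmhc-dominant tubes and 0% to 0.00655% in the myh6-dominant ones, was higher in the former (exact permutation adjusted p = 0.00364).

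Of the 10 tested atrial identity genes, 2 were lower in the vmhc-dominant tubes and 1 was higher. These are 20% and 10%, against 8.27% and 1.4% of all genes tested. NR2F1 (ENSDARG00000052695), a COUP nuclear receptor of the atrial program, had no count in any vmhc-dominant tube, and ran from 0 to 51.49 CPM with a median of 9.02 in the myh6-dominant tubes. It was detected in 8 of those 10, was 0 in CI_RFP 5, and was at least 208.1-fold lower in the vmhc-dominant tubes (edgeR adjusted p = 0.000775). The call was lost in cryoinjury tubes alone (edgeR adjusted p = 0.0522) and with detected genes as a covariate (edgeR adjusted p = 0.0621).

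KCNJ5, a subunit of the acetylcholine-gated potassium channel of atrial muscle, showed the same direction and included the tube without matrix RNA. It ran from 0 to 0.788 CPM in the vmhc-dominant tubes with a median of 0, and from 0 to 59.62 CPM with a median of 8.70 in the myh6-dominant tubes. The highest of the 10 was CI_RFP 5, at 59.62 CPM, and 2 of them read 0 (edgeR adjusted p = 0.0155). GJA5 (ENSDARG00000040065), a connexin of atrial and conduction muscle in mammals, went the other way, with 0 to 265.6 CPM and a median of 82.26 in the vmhc-dominant tubes and 0 to 26.07 CPM and a median of 2.44 in the myh6-dominant ones (log2 fold change 3.75 ± 1.13 (SE), edgeR adjusted p = 0.013). Its groups overlapped, and the call was lost with limma-voom (adjusted p = 0.0515), with DESeq2 (adjusted p = 0.0956) and with RLE size factors (edgeR adjusted p = 0.103), among others.

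TBX5, a T-box factor of the atrium and early heart, was detected in both classes, from 0 to 75.23 CPM with a median of 29.70 in vmhc-dominant tubes and from 4.14 to 115.6 CPM with a median of 11.99 in myh6-dominant ones. Its log2 fold change was 0.90 ± 1.34 (SE) with an edgeR adjusted p of 0.819, and its sign turned with no scaling factors. The natriuretic peptide genes nppa and nppb, hormones of the stretched heart, were high in both classes. nppa ran from 31.83 to 3728 CPM, median 1688, in the vmhc-dominant tubes and from 40.33 to 5142 CPM, median 492.7, in the myh6-dominant tubes (edgeR adjusted p = 0.471), and nppb had an edgeR adjusted p of 0.245.

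The pacemaker and atrioventricular canal list had 4 of 7 tested members lower in the vmhc-dominant tubes and none higher. This is 57.1% against 8.27% of all genes tested. TBX18, a T-box factor of the sinus venosus that is also made by the epicardium, was 0 in all vmhc-dominant tubes and in CI_RFP 5, and reached 279.9 CPM with a median of 21.93 in the myh6-dominant tubes, at least 860.2-fold lower in the vmhc-dominant class (edgeR adjusted p = 2.13e-06). FGF13 (ENSDARG00000035056), an intracellular regulator of sodium channels, was 0 in all vmhc-dominant tubes and ran from 0 to 47.37 CPM with a median of 15.85 in the myh6-dominant tubes. Its highest value was in CI_RFP 5, and it was at least 292.9-fold lower (edgeR adjusted p = 0.000481). TBX2 (ENSDARG00000006120), a repressor of chamber genes in the canal, and HAS2, which makes hyaluronan, were also lower, and both were 0 in CI_RFP 5 (edgeR adjusted p = 0.025 and 0.0211). The TBX2 call was lost in cryoinjury tubes alone and with detected genes as a covariate (edgeR adjusted p = 0.0834 and 0.0941), and the HAS2 call was lost with limma-voom (adjusted p = 0.52), with DESeq2 (adjusted p = 0.139) and with detected genes as a covariate (edgeR adjusted p = 0.183).

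tnni4a and TNNC1, both troponin genes, did not overlap between the classes. tnni4a, a troponin I gene, encodes the inhibitory subunit of the thin filament, and ran from 200.0 to 1162 CPM with a median of 1012 in the vmhc-dominant tubes. In the myh6-dominant tubes it ran from 0 to 0.69 CPM with a median of 0.0331, so the groups did not overlap and each vmhc-dominant tube was higher than each of the others. The log2 fold change was 12.49 ± 1.14 (SE; edgeR adjusted p = 7.61e-24). TNNC1 (ENSDARG00000037539), a troponin C gene, encodes the calcium-binding subunit and was the reverse: 0 to 22.09 CPM, median 4.08, in the vmhc-dominant tubes and 54.57 to 6378 CPM, median 1164, in the myh6-dominant tubes. The groups did not overlap, CI_RFP 5 held 2918 CPM, and the log2 fold change was -7.62 ± 0.95 (SE; edgeR adjusted p = 1.44e-12).

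A second troponin C gene, tnnc1a, singled out after its values were seen, moved the other way from TNNC1. It ran from 772.3 to 6757 CPM, median 2629, in the vmhc-dominant tubes and from 46.58 to 2050 CPM, median 441.5, in the myh6-dominant tubes (log2 fold change 2.51, edgeR adjusted p = 0.00539), a call lost with no scaling factors (edgeR adjusted p = 0.107). The tropomyosins, also singled out after their values were seen, split as well: tpm4a was higher, with a median of 17680 against 2746 CPM (edgeR adjusted p = 0.00121), while tpm1 and TPM4 were lower, with medians of 0 against 26.48 CPM and 0 against 5.51 CPM (edgeR adjusted p = 8.87e-05 and 0.0276). Both of the lower tropomyosins were 0 in CI_RFP 5, and the TPM4 call was lost with limma-voom (adjusted p = 0.281) and with detected genes as a covariate (edgeR adjusted p = 0.685). In cryoinjury tubes alone the TPM4 and tpm4a calls were lost (edgeR adjusted p = 0.297 and 0.0716).

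**Figure D3:**
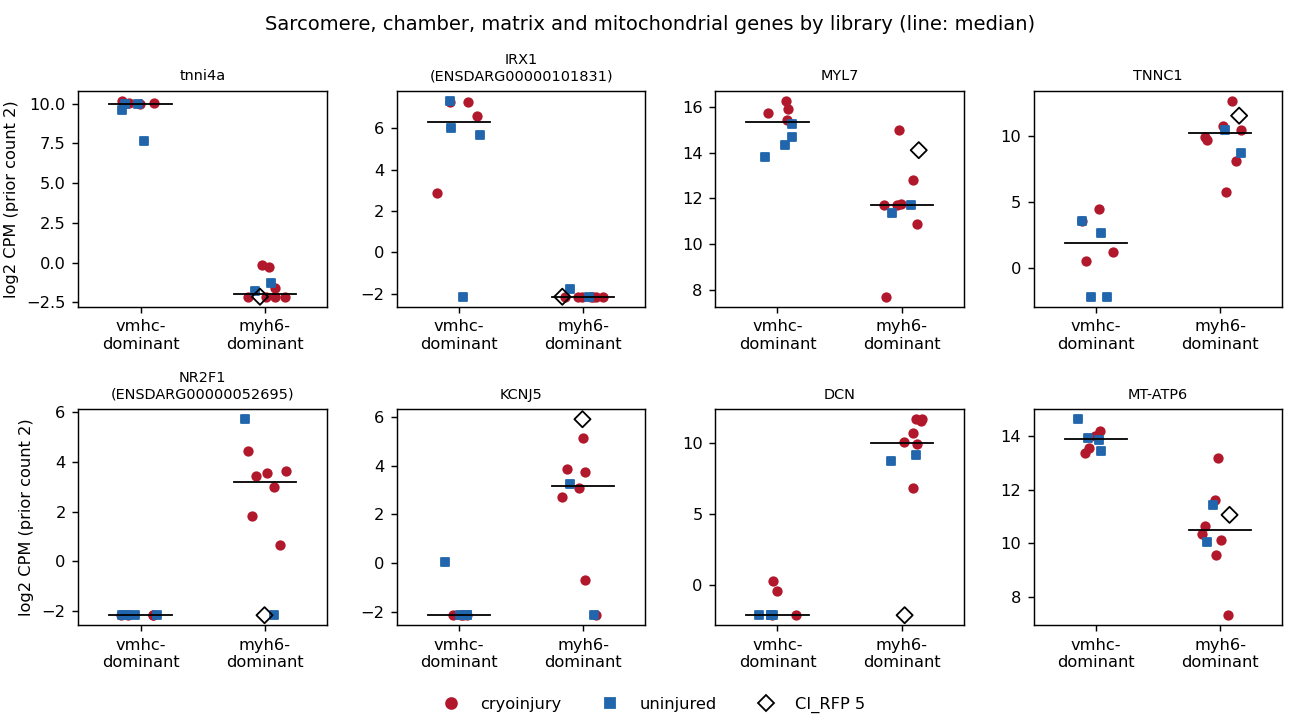
Level of 8 genes in each RFP library as log2 CPM (prior count 2), by class, with the median as a line and CI_RFP 5 as an open diamond. The classes do not overlap for tnni4a, TNNC1 and MT-ATP6. CI_RFP 5 is among the high tubes for TNNC1 and KCNJ5 and at 0 for DCN, NR2F1 and IRX1.

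Of the 41 tested sarcomere genes, 18 were higher in the vmhc-dominant tubes and 3 were lower, with a median log2 fold change of 2.42 against -0.85 over all genes. The shares higher and lower were 43.9% and 7.32%, against 1.4% and 8.27% of all genes tested. With RLE size factors 11 were higher and 3 lower, where 79 and 1441 of all 12426 genes were. With no scaling factors 9 were higher and 4 lower, where 65 and 1680 of all genes were. MYL7, an atrial-type regulatory myosin light chain that in zebrafish is made in both chambers, ran from 14260 to 78720 CPM, median 41610, in the vmhc-dominant tubes and from 207.6 to 32220 CPM, median 3320, in the myh6-dominant tubes (log2 fold change 2.88 ± 0.52 (SE), edgeR adjusted p = 4.11e-06). Its groups overlapped, CI_RFP 5 stood at 17600 CPM, above the lowest vmhc-dominant tube, and the call was lost in cryoinjury tubes alone (edgeR adjusted p = 0.122). The Z-disc gene CSRP3, a muscle LIM protein, was higher by 6.31 ± 1.05 on the log2 scale (SE; edgeR adjusted p = 5.39e-07), with a median of 505.3 against 4.09 CPM. In cryoinjury tubes alone the CSRP3 call was lost (edgeR adjusted p = 0.0751). The thick-filament genes MYBPC3 and TTN (ENSDARG00000000563), and the Z-disc gene actn2b, were higher as well, with medians of 2845 against 210.6, 2667 against 456.9 and 1088 against 184.6 CPM (edgeR adjusted p = 0.000125, 0.000657 and 0.00347), and only actn2b of these 3 had no overlap. The actn2b call was lost with no scaling factors (edgeR adjusted p = 0.059) and with detected genes as a covariate (edgeR adjusted p = 0.0685).

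The sarcomere list took 2.60% to 11.92% of counts in the vmhc-dominant tubes and 0.507% to 9.71% in the myh6-dominant tubes (exact permutation adjusted p = 0.00727). The top of the myh6-dominant range was CI_RFP 5, and the other 9 tubes had a median of 2.03%. ENSDARG00000079564, listed as MYH6 and added after its values were seen, is a myosin heavy chain gene that may share reads with the 2 genes of the split, so it is described without a test: it ran from 2.72 to 966.0 CPM in the vmhc-dominant tubes and from 0 to 31.39 CPM in the myh6-dominant ones.

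Of the 23 tested genes of calcium handling and excitation, 2 were higher and 1 was lower. These are 8.70% and 4.35%, against 1.4% and 8.27% of all genes tested. CASQ2, the calcium buffer of the sarcoplasmic reticulum, had a median of 772.3 against 116.0 CPM and a log2 fold change of 2.27 ± 0.77 (SE; edgeR adjusted p = 0.0362), and hrc, a histidine-rich calcium-binding protein of the same store, had a median of 49.50 against 0.508 CPM (edgeR adjusted p = 0.0036). The CASQ2 call was lost with limma-voom (adjusted p = 0.16), with DESeq2 (adjusted p = 0.187), with RLE and with no scaling factors (edgeR adjusted p = 0.201 and 0.233), with detected genes as a covariate (edgeR adjusted p = 0.0765) and in cryoinjury tubes alone (edgeR adjusted p = 0.0848), and the hrc call was lost in cryoinjury tubes alone (edgeR adjusted p = 0.0588). KCNE4, a potassium channel subunit, was lower, with medians of 0 against 55.68 CPM, and was 0 in CI_RFP 5 (edgeR adjusted p = 1.96e-07). The calcium pump gene atp2a2a and the release channel RYR2 did not pass (log2 fold changes 1.48 and 0.95, edgeR adjusted p = 0.155 and 0.666). kcnj14, an inward rectifier potassium channel outside that list, had no count in the myh6-dominant tubes and a median of 32.24 CPM in the vmhc-dominant ones, at least 1369-fold higher (edgeR adjusted p = 3.59e-07).

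Of 15 tested gap junction and intercalated disc genes, 2 were lower and none higher, 13.3% against 8.27% of all genes tested. Both were connexins, GJA1 with medians of 0 against 32.25 CPM and gja4 with medians of 0 against 8.09 CPM (edgeR adjusted p = 0.00725 and 0.00165), and both were 0 in CI_RFP 5. Both calls were lost with detected genes as a covariate (edgeR adjusted p = 0.245 for GJA1 and 0.0511 for gja4). The gja4 call was also lost in cryoinjury tubes alone (edgeR adjusted p = 0.0803). Of 19 cardiac transcription factor genes, meis1a and meis2b, homeobox cofactors, were lower and SMYD1 (ENSDARG00000091253), a muscle methyltransferase, was higher, with medians of 3.15 against 0 CPM (edgeR adjusted p = 0.000638, 0.00273 and 0.00341). The shares lower and higher were 10.5% and 5.26%, against 8.27% and 1.4% of all genes tested. The meis2b call was lost in cryoinjury tubes alone (edgeR adjusted p = 0.061). In the natriuretic list npr1a, a natriuretic peptide receptor gene, was the 1 of 7 called, 14.3% against 8.27% of all genes tested. It was at least 112.7-fold lower (edgeR adjusted p = 0.0118). That call was lost with limma-voom (adjusted p = 0.0545), among others.

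All 13 mitochondrially encoded protein genes, which build the respiratory chain and ATP synthase, were higher in the vmhc-dominant tubes, 100% against 1.4% of all genes tested. Their median log2 fold change was 2.73. For 6 of the 13 every vmhc-dominant tube lay above every myh6-dominant tube, which held for 0.137% of all genes tested. MT-ATP6, a subunit of ATP synthase, ran from 10590 to 25110 CPM, median 14980, in the vmhc-dominant tubes and from 160.1 to 9321 CPM, median 1435, in the myh6-dominant tubes (log2 fold change 2.73 ± 0.58 (SE), edgeR adjusted p = 0.000174). CI_RFP 5, at 2131 CPM, lay with the other myh6-dominant tubes. In cryoinjury tubes alone MT-ATP6 was the 1 of the 13 not called (edgeR adjusted p = 0.0683). Together the 13 genes took 8.47% to 23.03% of counts against 1.21% to 9.56% (exact permutation adjusted p = 0.00364). With RLE size factors 10 of the 13 were called and with no scaling factors 6, all higher. Of all 12426 genes tested, 79 and 65 were higher in those 2 fits.

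Nuclear genes of oxidative phosphorylation were higher in 27 of 104, 26.0% against 1.4% of all genes tested, and lower in none. Their median log2 fold change was 1.97. Called first among them was ndufa4b, a respiratory chain subunit, with a median of 1150 against 72.97 CPM (edgeR adjusted p = 0.000237). The ndufa4b call was lost in cryoinjury tubes alone and without the 4 libraries of fewest detected genes (edgeR adjusted p = 0.05685 and 0.05789). Fatty acid genes were higher in 6 of 27, 22.2% against 1.4% of all genes tested. Among them was FABP3, the heart fatty acid binding protein, with a median of 929.8 against 122.1 CPM (edgeR adjusted p = 0.0138). Another was ACADVL, the first enzyme of long-chain oxidation in mitochondria, with 973.7 against 195.8 CPM (edgeR adjusted p = 0.0129). These 2 lists depended on the scaling: with RLE size factors 5 oxidative phosphorylation genes were higher and 1 lower, with no scaling factors 2 were higher and 1 lower, and no fatty acid gene was called under either. Their median log2 fold changes went from 1.97 to 1.30 and 1.04 for oxidative phosphorylation and from 1.78 to 1.11 and 0.84 for fatty acid genes under those 2 scalings. Over all 12426 genes tested, 79 and 65 were higher under them, and 1441 and 1680 were lower. The ACADVL call was also lost with limma-voom (adjusted p = 0.114) and DESeq2 (adjusted p = 0.148). Without the 4 libraries of fewest detected genes the counts were 81 and 17, where 379 of 13546 genes were higher. CI_RFP 5 held 3.52% of counts in the oxidative phosphorylation list and 0.331% in the fatty acid list. The other 9 myh6-dominant tubes reached 3.1% and 0.291%. The vmhc-dominant tubes ran from 1.04% to 6.04% and from 0.153% to 0.643%.

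Glycolysis genes were higher in 8 of 27, 29.6% against 1.4% of all genes tested, and lower in none. With RLE size factors 5 were higher and with no scaling factors 4, where 79 and 65 of all 12426 genes were. The glycolysis list took 1.44% to 5.25% of counts in the vmhc-dominant tubes, with a median of 3.40%. CI_RFP 5 held 5.12%, and the other 9 myh6-dominant tubes held 0.676% to 4.27%. ALDOA (ENSDARG00000011665), an aldolase of muscle, ran from 1963 to 14200 CPM, median 7753, in the vmhc-dominant tubes and from 252.8 to 1412 CPM, median 662.3, in the myh6-dominant tubes, without overlap (log2 fold change 3.29 ± 0.60 (SE), edgeR adjusted p = 6.49e-06). The highest myh6-dominant value was that of CI_RFP 5. CKMT2 (ENSDARG00000069615), the mitochondrial creatine kinase of muscle, had a median of 418.2 CPM in the vmhc-dominant tubes, where UN_RFP 5 read 0, and reached 1.66 CPM in the myh6-dominant tubes with a median of 0 (log2 fold change 11.71 ± 1.27 (SE), edgeR adjusted p = 5.90e-17). AK1, an adenylate kinase of muscle singled out after its values were seen, was higher without overlap, at 2085 to 8411 CPM against 28.20 to 1694 CPM (edgeR adjusted p = 1.70e-05). Without scaling the classes overlapped for both ALDOA and AK1.

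hspb6, hspb9l and HSPB7, small heat shock genes of muscle, were higher in the vmhc-dominant tubes. hspb6 ran from 70.91 to 738.1 CPM, median 347.2, in the vmhc-dominant tubes and from 0 to 33.03 CPM, median 1.65, in the myh6-dominant ones, without overlap (log2 fold change 6.76 ± 1.11 (SE), edgeR adjusted p = 2.46e-07). hspb9l and HSPB7 were higher with overlap, at medians of 9092 against 530.1 and 1817 against 202.6 CPM (edgeR adjusted p = 2.48e-06 and 0.00338), and both calls were lost in cryoinjury tubes alone (edgeR adjusted p = 0.062 and 0.103). HSPB7 was also lost with no scaling factors (edgeR adjusted p = 0.0519). CI_RFP 5 read 0 for hspb6. It held 3148 CPM of hspb9l, the highest of its class, and 1517 CPM of HSPB7. Both lay above the lowest vmhc-dominant tube, at 588.9 and 450.2 CPM. Of the 34 immediate early and heat shock genes tested, 2 were higher, 5.88% against 1.4% of all genes tested, and none lower. The 2 were HSPB7 and hsp90aa1.1, a heat shock protein 90 gene, as hspb6 and hspb9l are not in that list. The hsp90aa1.1 medians were 5593 against 1907 CPM (edgeR adjusted p = 0.0168). Its call was lost with DESeq2 (adjusted p = 0.314), with RLE size factors and in cryoinjury tubes alone (edgeR adjusted p = 0.233 and 0.2), among others. The list's median log2 fold change was -0.30, while its summed share was lower in the vmhc-dominant tubes, 0.583% to 4.84% against 3.90% to 7.83% (exact permutation adjusted p = 0.00946).

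Cytosolic ribosomal protein genes gave no call: 0 of 81 passed in either direction with edgeR, with limma-voom, with RLE size factors or with no scaling factors, and 0 had an unadjusted edgeR p under 0.05. Their summed share was lower in the vmhc-dominant tubes, 1.61% to 7.67% against 4.24% to 11.94% (exact permutation adjusted p = 0.00364). The 50 most counted genes took 60.35% to 85.49% of the counts of a vmhc-dominant tube and 35.49% to 56.54% of those of a myh6-dominant tube (exact permutation adjusted p = 0.00364). One gene without a name, ENSDARG00000080337, took 14.55% to 49.59% in the former and 7.54% to 19.32% in the latter. The part of this difference in the shares above was not tested.

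**Figure D4:**
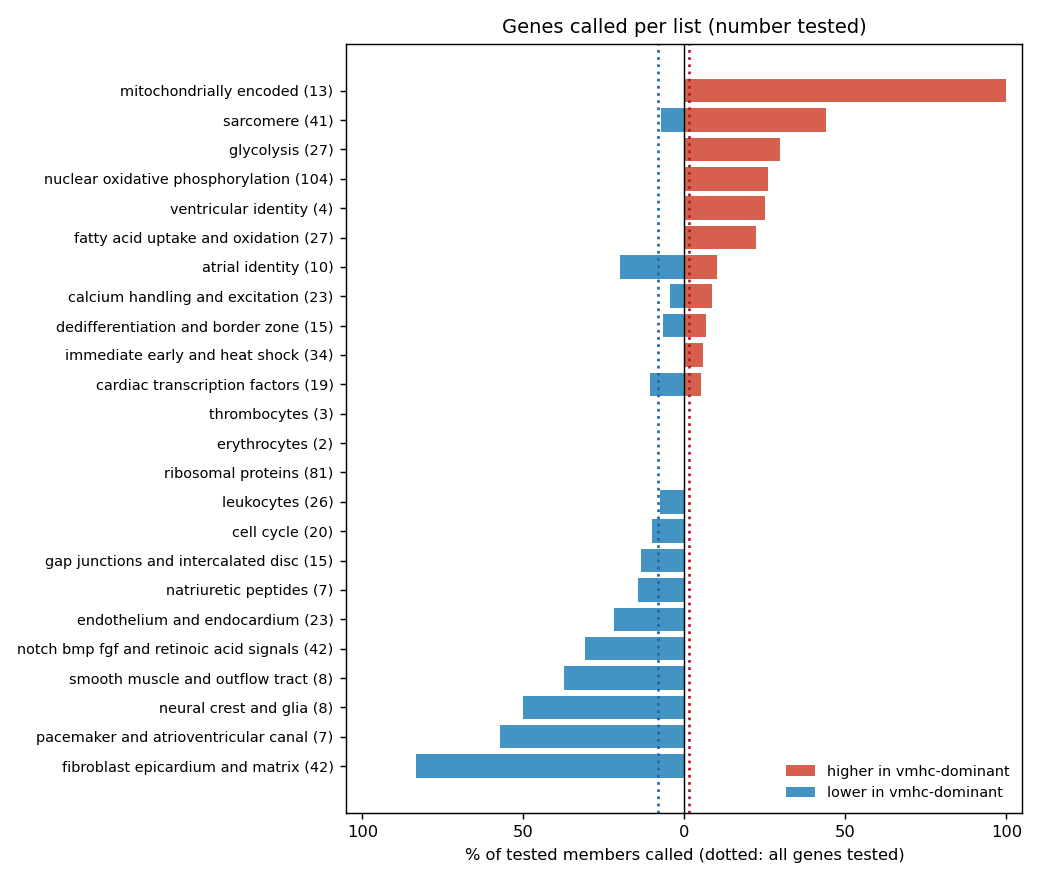
Percent of the tested genes of each list called higher (right, red) or lower (left, blue) in the vmhc-dominant tubes, with the number tested in parentheses and dotted lines at 1.4% and 8.27%, the shares over all genes tested. The 13 mitochondrially encoded genes were all higher, and 35 of 42 fibroblast, epicardium and matrix genes were lower.

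Of the 12 lower genes of smallest p, limited by detection as above, 4 were members of the fibroblast, epicardium and matrix list: DCN, THBS1, POSTN and fbln5. Of the 42 tested members of the fibroblast, epicardium and matrix list, 35 were lower in the vmhc-dominant tubes, 83.3% against 8.27% of all genes tested, and none was higher. Their median log2 fold change was -9.43, or -8.80 with the genes that had no count in a class set at their bound. In cryoinjury tubes alone 19 of them were lower, where 2.17% of all genes were. With detected genes as a covariate 18 were lower, where 276 of 15099 genes were. DCN, decorin, a collagen-binding proteoglycan of fibroblasts, ran from 0 to 0.983 CPM, median 0, in the vmhc-dominant tubes and from 0 to 3309 CPM, median 1023, in the myh6-dominant tubes (log2 fold change -12.66 ± 1.17 (SE), edgeR adjusted p = 3.21e-23). It was detected in 9 of the 10, and CI_RFP 5 was the tube at 0. THBS1 (ENSDARG00000103775), a matrix thrombospondin, had no count in any vmhc-dominant tube or in CI_RFP 5 and a median of 148.4 CPM in the myh6-dominant class, at least 5397-fold lower (edgeR adjusted p = 5.49e-15). POSTN (ENSDARG00000104267), periostin, a protein of activated fibroblasts, had a median of 455.1 CPM in the myh6-dominant tubes, 0.544 CPM in CI_RFP 5, and 0 to 2.41 CPM in the vmhc-dominant tubes (edgeR adjusted p = 1.21e-11). The THBS1 and POSTN calls were lost in cryoinjury tubes alone (edgeR adjusted p = 0.05685 and 0.05031).

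tfa, BHMT and RSPO1 were also among those 12, as was fbln5 of the matrix list. tfa, a transferrin, and BHMT, an enzyme of methionine metabolism, had medians of 488.9 and 285.3 CPM in the myh6-dominant tubes, 2 counts and 1 count in all vmhc-dominant tubes together, and 0 in CI_RFP 5 (edgeR adjusted p = 5.71e-18 and 3.19e-16). RSPO1, an R-spondin that raises Wnt signalling, and fbln5, an elastic-fibre protein, had no count in the vmhc-dominant tubes and were at least 2401-fold and 2485-fold lower (edgeR adjusted p = 1.55e-11 and 2.24e-11). The RSPO1 call was lost in cryoinjury tubes alone (edgeR adjusted p = 0.0596). Of 42 signalling genes of the Notch, BMP, FGF and retinoic acid pathways, 13 were lower, 30.95% against 8.27% of all genes tested, and none higher. Among the lower were the FGF receptor fgfr4 and the retinoic acid binding protein CRABP2 (ENSDARG00000030449). They were at least 620.0-fold and 343.4-fold lower (edgeR adjusted p = 8.34e-06 and 0.000187), and both were 0 in CI_RFP 5.

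The counts of lower genes in the lists of other cell types are set here against 8.27% of all genes tested. Of 8 tested neural crest and glia genes, 4 were lower in the vmhc-dominant tubes, 50%, namely snai2, snai1b and both SOX9 genes (ENSDARG00000003293 and ENSDARG00000043923), transcription factors also made by mesenchymal cells, and all 4 were 0 in CI_RFP 5. SOX10 itself, the gene whose promoter drives the recombinase, did not pass, at 0 to 11.14 CPM, median 1.67, in the vmhc-dominant tubes and 0.0907 to 50.29 CPM, median 4.19, in the myh6-dominant tubes (log2 fold change -2.01 ± 1.55 (SE), edgeR adjusted p = 0.533). Smooth muscle and outflow tract genes were lower in 3 of 8, 37.5%, endothelial and endocardial genes in 5 of 23, 21.7%, and leukocyte genes in 2 of 26, 7.69%, which is near the share of all genes, and none of these was higher. With limma-voom or with detected genes as a covariate 1 endothelial gene was higher, where 194 of 12426 and 265 of 15099 genes were. In cryoinjury tubes alone 1 neural crest, 2 smooth muscle, 0 endothelial and 0 leukocyte genes were called lower. There 2.17% of all genes were lower. With detected genes as a covariate those numbers were 1, 0, 0 and 0, where 276 of 15099 genes were lower. None of the 2 erythrocyte and 3 thrombocyte genes passed in edgeR or limma-voom, and 1 and 0 of them had an unadjusted edgeR p under 0.05. The summed endothelial share ran from 0.00127% to 0.1053% in the vmhc-dominant tubes and from 0.000026% to 0.2223% in the myh6-dominant tubes (exact permutation adjusted p = 0.0602), and the leukocyte share reached 0.683% and 1.12% (exact permutation adjusted p = 0.399).

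Of 20 tested cell cycle genes, CCND1 and CCNE1, cyclins of cell-cycle entry, were lower, 10% of the list against 8.27% of all genes tested, and none was higher. The median log2 fold change of the list was 0.40. The CCND1 call was lost with limma-voom (adjusted p = 0.081), and the CCNE1 call with limma-voom (adjusted p = 0.34), with detected genes as a covariate (edgeR adjusted p = 0.875) and without the 4 libraries of fewest detected genes (edgeR adjusted p = 0.106). Of 15 genes of dedifferentiation and the injury border zone, 1 was lower and 1 higher, 6.67% each against 8.27% and 1.4% of all genes tested. The lower one was igf2b, an insulin-like growth factor, with medians of 0 against 119.2 CPM (edgeR adjusted p = 0.000525). The higher one was MUSTN1, a small muscle protein, with 359.9 against 12.53 CPM (edgeR adjusted p = 0.00234). The igf2b call was lost in cryoinjury tubes alone and with detected genes as a covariate (edgeR adjusted p = 0.383 and 0.554). It was also lost without the 4 libraries of fewest detected genes (edgeR adjusted p = 0.0941). The MUSTN1 call was lost in cryoinjury tubes alone (edgeR adjusted p = 0.0781).

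CI_RFP 5 was the 1 myh6-dominant tube nearly without matrix RNA, and it is also among the 4 libraries of fewest detected genes. It was part of the fit that made the calls, so its place among the called genes is a description. Of the 1028 lower genes, 934 were at 0 in it, 90.86%, against 71.58% of all tested genes. In 78 of the 1028, 7.59%, it lay above every vmhc-dominant tube, against 8.18% of all tested genes, and 16 of these were above every vmhc-dominant tube in the other 9 as well. Beside TNNC1 these included col18a1a, a collagen of basement membranes, with 2.52 to 208.5 CPM in the myh6-dominant tubes and 74.32 CPM in CI_RFP 5, the semaphorin SEMA3F (ENSDARG00000055373), with 35.48 CPM in CI_RFP 5, and GUCY1B1, a subunit of the nitric oxide receptor, with 16.42 CPM, all at 0 in every vmhc-dominant tube and named for their lack of overlap (edgeR adjusted p = 9.38e-07, 2.87e-05 and 0.00617). CCND1 was 0 in all vmhc-dominant tubes and highest in CI_RFP 5, at 55.62 CPM (edgeR adjusted p = 0.0164). Of the 174 higher genes, CI_RFP 5 lay below the vmhc-dominant median in 169, 97.13% against 46.76% of all tested genes, and below every vmhc-dominant tube in 36, 20.69% against 1.08%. In 16 of the 174 it lay above the highest of the other 9 myh6-dominant tubes, and the share of all tested genes that did so was not counted.

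With the mean log2 level of the matrix list in each library as a covariate, chosen after seeing the data, 6 genes were higher and 21 lower, and 3 and 16 of them were also called without it. The 3 were tnni4a, GPR22 (ENSDARG00000004592), an orphan receptor, and pip5k1ba (edgeR adjusted p = 0.00167, 0.000582 and 0.0123), and the 16 included TNNC1, col18a1a, SEMA3F and FGF13 (edgeR adjusted p = 1.32e-09, 0.000368, 0.00165 and 0.00655). IRX1, NR2F1, MYL7 and MT-ATP6 were not called in that fit (edgeR adjusted p = 0.329, 0.81, 0.793 and 0.786). Since the other 9 myh6-dominant tubes lay above every vmhc-dominant tube in matrix share, CI_RFP 5 carries much of what tells class from matrix level in it. Without the 9 matrix-rich tubes, CI_RFP 5 was the only myh6-dominant tube left, and 0 genes were higher and 0 lower in edgeR at the adjusted threshold, with 178 and 108 at an unadjusted p under 0.05. That fit assumes that the lone tube varies like the rest.

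The BFP libraries, which the split did not use, held matrix RNA in both myosin classes. By the same rule 6 of the 7 were vmhc-dominant and 1, UN_BFP 1, was myh6-dominant, so no test was made. Their myosin levels, in CPM of the raw totals, were mostly below those of the RFP tubes. vmhc ran from 151.1 to 3432 in the 6, against 1129 to 24867 in the vmhc-dominant RFP tubes. myh6 was 134.4 in UN_BFP 1, against 331.8 to 4642 in the myh6-dominant RFP tubes. The BFP libraries are therefore not matched to the RFP tubes in myosin level. On the same scale, tnni4a ran from 3.30 to 185.8 with a median of 58.19 in the 6 and was 0.197 in UN_BFP 1. TNNC1 ran from 0 to 24.60 with a median of 0.966 in the 6 and was 1065 in UN_BFP 1, and FGF13 was 0 in all 6 and 26.62 in UN_BFP 1. DCN did not follow the myosins there: it ran from 113.3 to 1952 in the 6 and was 1942 in UN_BFP 1. IRX1 exceeded 1 CPM in 2 of the 6, and KCNJ5 was 0 in all 7 libraries. MT-ATP6 was 3085 in UN_BFP 1 and 1628 to 7827 in the 6, with a median of 2667. MT-ND2 was 2214 in UN_BFP 1 and 541.8 to 4785 in the 6, with a median of 1594. MT-CYB was 4913 in UN_BFP 1 and 2623 to 11960 in the 6, with a median of 6129. MT-CO1 was 6706 in UN_BFP 1, below the 7040 to 16060 of the 6.

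Over the whole list, UN_BFP 1 lay above all 6 vmhc-dominant BFP libraries for 349 of the 1028 lower genes, 33.95%, against 20.06% of all tested genes. It lay below all 6 for 14 of the 174 higher genes, 8.05%, against 5.83% of all tested genes. These are values of 1 library and carry no estimate of spread.

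The difference between the classes was compared between injured and uninjured hearts with an interaction term in a fit of 15099 genes. One gene had a more positive difference after cryoinjury (0.00662% of those tested) and 5 a more negative one (0.0331%). homeza, a homeobox gene, was 76.30 to 383.2 CPM in the 4 vmhc-dominant tubes after cryoinjury and 0 in all 4 from uninjured hearts, and the myh6-dominant tubes held 189.1 to 434.7 and 67.51 to 250.7 CPM (edgeR adjusted p = 0.000194). UN_RFP 1, 4 and 5 are among the 4 libraries of fewest detected genes (5008, 5314 and 1226), and UN_RFP 2 had 8254. The vmhc-dominant tubes after cryoinjury had 5886 to 11491, so injury and low detection cannot be told apart for homeza. The 5 others were the matrix genes col5a3a, a collagen, and FN1 (ENSDARG00000019815), a fibronectin, together with acta2, the smooth muscle actin, cd7al and hamp, which is hepcidin. In uninjured vmhc-dominant hearts col5a3a was counted in UN_RFP 5 alone and FN1, cd7al and hamp in UN_RFP 1 alone, and acta2 in 3 tubes, so 4 of these differences rest on single libraries.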

How the data were processed

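The authors deposited raw read counts per Ensembl gene for each library, 31901 genes, unnormalised. Per the submitters' processing notes, FastQC 0.11.5, HISAT2 2.1.0 and featureCounts 1.6.0 were used with the GRCz11 build. The deposited tables are named after a different aligner, so the tool behind the counts is not settled. Annotation release, counting options and strand mode were not given in the sources used here, so reads of near-identical or antisense genes may be shared. Gene names came from a table that matched 29178 IDs (91.46%), in the human style, and a name shared by several IDs is printed with its ID.

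Libraries were grouped by the labels and split by the vmhc and myh6 counts, which were then left out. Genes were kept with filterByExpr, scaled by TMM and tested with edgeR 4.0.16 in R 4.3.3 (robust quasi-likelihood, two-sided, injury label plus class). Adjusted p-values are Benjamini-Hochberg over all genes tested, with a threshold of 0.05. The SE is the size of the log2 fold change over the square root of F. The common biological coefficient of variation was 1.89. A class with no count was set at a floor of 3 counts over its combined effective library size (0.0573 CPM vmhc-dominant, 0.028 CPM myh6-dominant). Reads carry no molecular identifiers, so floors cover counting error only. Library measures and the summed shares of 24 lists were compared by exact permutation of class within injury label (7425 assignments) and adjusted over 27 tests. The edgeR step was tested on simulated counts.

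The genes named were the 12 higher and 12 lower of smallest adjusted p with a usable name, up to 4 called genes per list, and a few chamber genes. For the 12 higher and 12 lower, detection was also required in 75% or more of the tubes of the class with the higher level. How often they were detected in that class is therefore partly set by the choice. The split, lists and rule were chosen with earlier results of these data known. limma 3.58.1, DESeq2 1.42.0 and other scalings, filters, covariates and subsets were tried as alternatives.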

Additional observations from a re-analysis of the deposited data

Results flagged for a closer look

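In each class of libraries, a level or list share was flagged where the highest or lowest library stood far from the others for its class size (Dixon's criterion). Of 222 sets of values, 59 were flagged. Chance flags about 1 in 20 where values are normally spread, but not where libraries tie at no count. In such sets a single read can be flagged, so 59 cannot be set against that rate. A level of -2.15 on the log2 CPM scale stands for no count.

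CI_RFP 5, the myh6-dominant tube without matrix RNA, stood apart at -2.15 log2 CPM for DCN, THBS1 (ENSDARG00000103775), OLFML3 (ENSDARG00000062171), TNFAIP6, TBX2 (ENSDARG00000006120), CRABP2 (ENSDARG00000030449), snai2, TAGLN (ENSDARG00000033466), klf2b, NFATC1 and igf2b. It was the highest of its class in the atrial list, at 0.0497% of counts, and in the dedifferentiation and border zone list, at 1.05%.

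UN_RFP 5, the vmhc-dominant tube with few detected genes, stood apart at -2.15 log2 CPM for CKMT2 (ENSDARG00000069615), IRX1 (ENSDARG00000101831), kcnj14, CSRP3, CASQ2, ACADVL and TBX5. It was low for pln1 (7.79) and PGAM2 (3.07), and high for GSTM3 (ENSDARG00000088116) (1.05) and KCNJ5 (0.0198, 3 reads) on the same scale. Its endothelial share was 0.1053%.

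UN_RFP 1 was low for tnni4a (7.65 log2 CPM), FABP3 (7.60) and hadhaa (-2.15). It was high for GJA1 (4.19) and MFAP4 (ENSDARG00000088745) (4.06), and for aebp1b, snai2 and MYLK (ENSDARG00000034801), each at -1.50. Each value of -1.50 rests on 1 read. Its matrix share of 0.2123% and its leukocyte share of 0.683% were the highest of the vmhc-dominant class. UN_RFP 4 was low for MT-CO1 (13.92 log2 CPM) and high in the pacemaker list (0.0083%) and the thrombocyte list (0.0014%).

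Among other vmhc-dominant tubes, CI_RFP 2 was high for BHMT (-1.51 log2 CPM, 1 read) and SOX9 (ENSDARG00000003293) (2.60). CI_RFP 12 was high for POSTN (ENSDARG00000104267) (1.40) and LTBP1 (0.12), and CI_RFP 1 for CCNE1 (-1.45, 1 read) and ESAM (-0.98, 2 reads). Among myh6-dominant tubes, CI_RFP 3 was high for CKMT2 (0.92), SMYD1 (ENSDARG00000091253) (-1.60, 1 read), SLC2A1 (ENSDARG00000001437) (-0.24) and MT-CO1 (14.80). UN_RFP 3 was high for IRX1 (-1.78, 1 read) and low for PGAM2 (-2.15). UN_RFP 6 was low for hadhaa (-2.15) and high in the immediate early and heat shock list (7.83%). CI_RFP 11 was low for CASQ2 (1.45) and nppb (4.83) and high in the pacemaker list (0.0571%), CI_RFP 9 was high for ucp3 (4.14) and in the erythrocyte list (0.0726%), and CI_RFP 6 was high for MYH6 (ENSDARG00000079564) (4.98) and in the cell cycle list (0.0415%).

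The class difference changed with injury, by an edgeR interaction test, for 6 genes. The interaction log2 fold change was 13.36 for homeza, -25.34 for col5a3a, -14.89 for FN1 (ENSDARG00000019815), -12.11 for acta2, -22.54 for cd7al and -21.39 for hamp. For all but acta2, values this large come from groups with no count and have no bound in the data. acta2 was counted in each group, but only at 0.446 to 1.139 CPM in vmhc-dominant tubes after cryoinjury.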

How the results depend on the processing

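The main counts were 174 higher and 1028 lower genes. The higher count became 79 with RLE size factors, 65 with no scaling factors, 390 with no filter, 101 with at least 10 counts in 8 libraries, 99 without the injury label, 265 with detected genes as covariate, 1 in uninjured tubes, 379 without the low-detection libraries, 0 without the matrix-rich libraries and 6 with the matrix level as covariate. The lower count became 2479 with DESeq2, 1680 with no scaling factors, 387 with the stricter filter, 363 without the injury label, 276 with detected genes, 250 in cryoinjury tubes, 7 in uninjured tubes, 0 without the matrix-rich libraries and 21 with the matrix level. Leaving out 1 library at a time gave 118 to 229 higher and 753 to 1235 lower genes. The causes were not tested, except that the subsets hold fewer tubes.

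The interaction calls, 1 more positive and 5 more negative, became 2 and 0 with limma-voom, 0 more negative with the stricter filter, and 2 and 2 without the low-detection libraries. They ran from 1 to 9 and from 0 to 7 when 1 library was left out. Without UN_RFP 1 they were 9 and 3, without CI_RFP 5 there were 5 more positive, without UN_RFP 4 there were 4, and without UN_RFP 3 or UN_RFP 6 there were 0 more negative.

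Of the library measures, 1 of 3 passed. It was 2 without the low-detection libraries, 2 when classes were permuted without the injury stratum, 0 in uninjured tubes (where the smallest possible exact p is 0.0667), and 1 to 2 when 1 library was left out. Of the list shares, 14 passed, with 5 in cryoinjury tubes, 0 in uninjured tubes and 10 to 17 when 1 library was left out. Signs turned for TBX5 (log2 fold change -0.0504 with no scaling factors), nppb (-0.43 in uninjured tubes) and some shares that did not pass. In percentage points of counts, the atrial share difference was 0.0037 without low-detection libraries and 0.00135 in cryoinjury tubes, and -0.00438 to 0.00101 over single omissions. The natriuretic share difference was 0.1914 and 0.1394 in those subsets and -0.0709 to 0.0501 over single omissions. The dedifferentiation share difference was 0.0382 without low-detection libraries, the smooth muscle difference was 0.0193 and the erythrocyte difference 0.000666 in uninjured tubes, and the erythrocyte difference ran from -0.00735 to 0.000715 over single omissions. No called named gene changed sign outside the 2 settings that concern matrix RNA, which turned 10 and 5 of them.

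No paired analysis was possible because the labels give no replicate numbers shared between groups.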
